A study of Sus scrofa with 15 samples.

Results

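The genes described here are 9 genes of compaction, epithelial junctions, simple-epithelial keratins and the sodium pump: *CDH1*, *CTNNB1*, *TJP1*, *OCLN*, *CLDN4*, *CLDN6*, *KRT8*, *KRT18* and *ATP1B1*. They were taken by gene symbol from the deposited expression table, where all 9 were present among 28224 known genes. The whole table held 43294 features, and its other 15070 entries were unnamed assembled transcripts. Of the 9 genes, 7 passed the filter on low values (a normalized value averaging 10 or more across the fitted libraries) in the comparisons between embryos, and 6 passed it in the comparison with donor cells.

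Compaction is the step at which the rounded blastomeres of a cleavage embryo flatten against each other, and it depends on E-cadherin, encoded by *CDH1*, and on the catenins that tie it to the actin cortex. The outer cells then assemble tight junctions, become polarized and form the trophectoderm, the first epithelium of the embryo, which carries keratin 8 and keratin 18 filaments. The sodium pump of the trophectoderm drives fluid across this sealed layer to fill the blastocyst cavity.

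RNA-seq was performed on 15 libraries in 5 groups of 3. PFF were primary pig fetal fibroblasts, the donor cells for somatic cell nuclear transfer (SCNT). All 4 embryo groups carried a PFF nucleus in an enucleated matured oocyte, and each embryo library was made from a pool of 30 embryos. SCNT4c and SCNT8c were untreated 4-cell and 8-cell embryos. SCNT4c-KG were 4-cell embryos injected with 1000 ng/µl *KDM4A* mRNA, which encodes an H3K9 demethylase, at 5 h after activation. They were also cultured for 48 h with 0.1 µM GSK126, which inhibits EZH2, the methyltransferase of H3K27. No group was labelled as sham-injected or vehicle-treated. The enzyme, the inhibitor, the injection and the vehicle therefore cannot be told apart. SCNT4c-TDG were 4-cell embryos whose donor PFF had been transfected with a doxycycline-inducible vector for *TDG*, a thymine DNA glycosylase that takes part in DNA demethylation, and selected with puromycin. These embryos received 500 ng/ml doxycycline from 40 to 72 h, and no library of untransfected embryos with doxycycline was analysed here, so *TDG*, the drug and the selected donor cells cannot be told apart. Nothing in the labels says whether the 3 pools of a group came from separate transfer days, so p values measure only the spread between these pools.

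The normalized values were read counts divided by 1 factor for each library, which let the whole reads be recovered. These ranged from 12354649 to 15390472 in SCNT4c-KG, the shallowest group, and from 17757929 to 22868038 in the other libraries. The GEO description field of the SCNT4c-KG samples holds the names under which the table lists the untreated SCNT4c columns, so both groups were assigned from the sample titles and the column names, and every comparison of SCNT4c-KG with SCNT4c rests on that assignment. The libraries fitted their labels in *KDM4A*, at 1429 to 1476 in SCNT4c-KG against 134 to 313 in SCNT4c, and in *TDG*, at 49857 to 59944 in SCNT4c-TDG against 939 to 2541 in SCNT4c. *KDM4A* was also higher in SCNT4c-TDG (log2 fold change 2.08) and *TDG* in SCNT4c-KG (1.46). All 11 fibroblast markers were above 10 in every PFF library, with a summed value of 3873350 to 4101840, while the sum was 1793 to 5469 in the embryo libraries, where 6 to 9 of them were above 10. Single markers differed in direction. From SCNT4c to SCNT4c-KG the mean of *COL1A2* went from 2535 to 472, while *VIM* went from 482 to 1380, *THY1* from 106 to 700 and *S100A4* from 6.59 to 207. The summed value of 11 oocyte markers was 16.6 to 25.0 in PFF, 191069 to 211845 in SCNT4c, 74233 to 111097 in SCNT4c-KG and 60684 to 61001 in SCNT4c-TDG. Most of the sum in SCNT4c was *KPNA7* and *ZP4*, with means of 115607 and 74784. The other oocyte markers with reads went both ways in SCNT4c, SCNT4c-KG and SCNT4c-TDG. *DPPA3* had means of 4897, 23345 and 34780 and *ZP3* of 28.1, 667 and 74.6, while *ZP2* had 3199, 1998 and 1838, *NLRP5* 321, 153 and 78.7, and *ZAR1* 6.83, 0 and 0.256. *OOEP* was at 708 and 1406, and its 795 in SCNT4c-TDG overlapped SCNT4c. Cumulus cell markers summed to 195 to 609 in the embryo libraries and to 12731 to 15182 in PFF. Most of the sum in PFF was *VCAN*, with a mean of 13808, while *CYP19A1*, *FSHR* and *INHA* were at 0 there. SCNT8c replicate 3 stood apart from its group. Its oocyte sum was 137948, against 75931 and 52679 in the other SCNT8c libraries, and leaving it out changed the number of features called in the comparison of the cleavage stages from 1096 to 6133.

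The promoters of *CDH1*, *CLDN6* and *ATP1B1* are printed because these genes were called higher in a treated 4-cell group. Each sequence runs 5′ to 3′ on the strand of the gene from 250 bases before to 50 bases after the RefSeq gene start in Sscrofa11.1, the build of the deposited table. Capitals mark the E-box CAGGTG (reverse complement CACCTG), a motif known to be bound by SNAI and ZEB repressors, and the GC box GGGCGG (reverse complement CCGCCC) of SP family factors. Both strands were searched, and no matches overlapped in these 3 windows.
CDH1, chr6:18155937-18156236, minus strand: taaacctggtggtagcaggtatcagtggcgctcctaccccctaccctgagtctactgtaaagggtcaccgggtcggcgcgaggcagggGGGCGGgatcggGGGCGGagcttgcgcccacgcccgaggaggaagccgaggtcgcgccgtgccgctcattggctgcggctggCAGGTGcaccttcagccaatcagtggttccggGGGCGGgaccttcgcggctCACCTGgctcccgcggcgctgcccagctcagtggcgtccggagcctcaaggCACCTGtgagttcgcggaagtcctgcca
CLDN6, chr3:39168256-39168555, plus strand: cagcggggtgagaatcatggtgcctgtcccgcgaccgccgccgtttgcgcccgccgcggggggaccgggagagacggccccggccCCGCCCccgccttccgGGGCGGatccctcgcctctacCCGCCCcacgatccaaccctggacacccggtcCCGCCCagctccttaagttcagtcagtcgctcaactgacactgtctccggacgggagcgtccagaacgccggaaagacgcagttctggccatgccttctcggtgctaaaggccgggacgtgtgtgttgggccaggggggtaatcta
ATP1B1, chr4:81936966-81937265, minus strand: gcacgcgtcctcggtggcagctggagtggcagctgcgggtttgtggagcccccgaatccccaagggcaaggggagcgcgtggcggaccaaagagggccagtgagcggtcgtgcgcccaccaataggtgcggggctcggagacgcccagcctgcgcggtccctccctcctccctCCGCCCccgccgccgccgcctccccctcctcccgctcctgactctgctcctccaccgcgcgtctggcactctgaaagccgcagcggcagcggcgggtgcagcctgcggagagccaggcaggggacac
The *CDH1* window held 3 E-boxes, whose first bases lay at -80, -29 and 23 relative to the gene start, with the first base of the gene counted as 1 and no position 0. The *CLDN6* and *ATP1B1* windows held 0 E-boxes. Of 19556 promoters of protein-coding genes, 22.46% had at least 1 E-box in a window of the same length. GC boxes numbered 3 at *CDH1*, 4 at *CLDN6* and 1 at *ATP1B1*, and 50.6% of all promoters had at least 1. Among the other genes, 2 E-boxes each were found at *CLDN4*, *KRT8* and *KRT18* and 1 at *OCLN*, with 0 at *CTNNB1* and *TJP1*. The palindrome GCCNNNGGC of TFAP2 factors occurred only at *TJP1* among the 9 windows, against 26.2% of all promoters. These matches describe the letters only, and no binding was measured.

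Adhesion genes were described first. *CDH1* (chr6:18075487-18155986, minus strand, 16 exon blocks) was low in untreated embryos and high in both treated groups. Its normalized value was 23.7, 19.2 and 21.6 in SCNT4c libraries a, b and c. It was 629, 852 and 819 in SCNT4c-KG replicates 1 to 3, and 1059, 1014 and 871 in SCNT4c-TDG replicates 1 to 3. Every treated library lay above every untreated one, and the groups did not overlap. The mean was 35.7-fold higher in SCNT4c-KG than in SCNT4c (log2 fold change 5.08, SE 0.45, adjusted p = 9.3e-07) and 45.7-fold higher in SCNT4c-TDG (5.45, SE 0.45, adjusted p = 7.9e-07). Here and below, "called" means a limma p below 0.05 after Benjamini-Hochberg adjustment together with a change of more than 2-fold. With 3 against 3 libraries an exact two-sided permutation test of a single gene cannot go below p = 0.1. The call was kept in all 18 alternatives of each comparison. Every SCNT4c-TDG library lay above every SCNT4c-KG library, but the difference between them was not called (0.36, 95% CI -0.60 to 1.33, adjusted p = 0.640), and its sign turned when the transcript of its locus described below was added (-0.10).

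In SCNT8c, *CDH1* was at 6.53, 7.48 and 14.8. All 3 values were below those of SCNT4c, and replicate 3 was the nearest to them. The difference did not pass the test (log2 fold change -1.16, SE 0.45, adjusted p = 0.112), and it passed without SCNT8c replicate 3 (-1.49). The mean was 79.8-fold higher in SCNT4c-KG and 102-fold higher in SCNT4c-TDG than in SCNT8c, given here as ratios of means without a test. In PFF *CDH1* had 0 reads in all 3 libraries. The mean of SCNT4c was at least 5.83-fold higher than the floor of 3 reads per library, and the gene passed the filter of that comparison only through its SCNT4c libraries. In bulk RNA, fewer cells with a transcript and less RNA per cell cannot be told apart.

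The table also listed 1 assembled transcript without a gene name at the *CDH1* locus, which shared the locus with the gene. It was at 47.3, 71.7 and 208 in SCNT4c libraries a, b and c, at 251, 347 and 50.7 in SCNT8c, at 425, 722 and 436 in SCNT4c-KG and at 308, 193 and 145 in SCNT4c-TDG, with 0 reads in PFF. It rose in SCNT4c-KG (log2 fold change 2.51, SE 0.68, adjusted p = 0.0098) and was not called in SCNT4c-TDG (1.19, adjusted p = 0.190) or in SCNT8c (0.88, adjusted p = 0.407). With the transcript added to the gene, *CDH1* was still called in SCNT4c-KG (3.47) and SCNT4c-TDG (3.37), while the sign of the difference between SCNT8c and SCNT4c turned to 0.67 (adjusted p = 0.446).

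**Figure D1:**
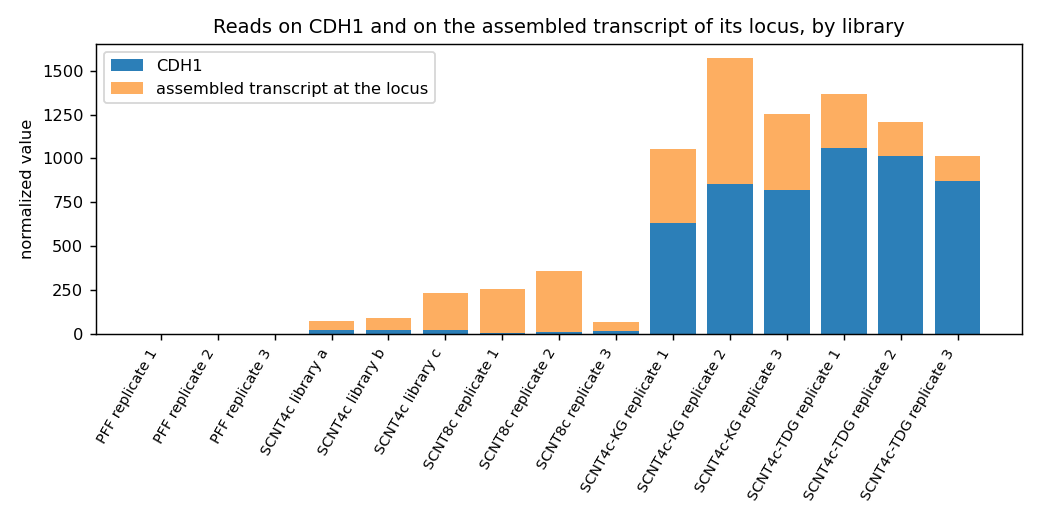
Stacked bars give the normalized value of *CDH1* (blue) and of the assembled transcript at its locus (orange) in each of the 15 libraries, on a linear axis from 0. The blue part is at most 23.7 in the untreated embryos and at least 629 in SCNT4c-KG and SCNT4c-TDG, and PFF shows neither.

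*CTNNB1* (chr13:25163550-25208314, plus strand, 16 exon blocks) encodes beta-catenin, which binds the tail of E-cadherin and also acts in Wnt signalling. It was at 17910, 17564 and 18064 in PFF and at 1943, 3018 and 3006 in SCNT4c. In SCNT4c-KG it was at 431, 542 and 718, below every SCNT4c library. In SCNT4c-TDG it was at 1710, 1782 and 1956, which overlapped SCNT4c. *CTNNB1* therefore fell in SCNT4c-KG (log2 fold change -2.24, SE 0.36, adjusted p = 0.00028), where *CDH1* rose, and was not called in SCNT4c-TDG (-0.52, 95% CI -1.30 to 0.26, adjusted p = 0.285). The difference between the treated groups was itself called, at 1.72 higher in SCNT4c-TDG (SE 0.36, adjusted p = 0.0051). SCNT8c held 948, 1032 and 2410, and replicate 3 alone lay within the range of SCNT4c. The stage difference of -0.97 (adjusted p = 0.103) was called only when that library was left out (-1.40). In SCNT4c, *CTNNB1* was lower than in PFF by 2.78 on the log2 scale (SE 0.18, adjusted p = 2.3e-05). The deposited table placed *CTNNB1* in a locus with 3 known genes and *TJP1* in a locus with 2, so reads of neighbours may be shared for both.

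Tight junction genes came next. *CLDN6* (chr3:39168506-39172631, plus strand, 2 exon blocks) encodes claudin 6, a claudin of embryonic epithelia. It was at 207, 405 and 860 in SCNT4c libraries a, b and c and at 5853, 4978 and 6387 in SCNT4c-KG. SCNT4c-TDG held 450, 425 and 233, within the range of SCNT4c. *CLDN6* rose in SCNT4c-KG by 11.7-fold in the mean (log2 fold change 3.77, SE 0.47, adjusted p = 2.8e-05) and was not called in SCNT4c-TDG (-0.23, 95% CI -1.24 to 0.77, adjusted p = 0.735), where its sign turned positive in 5 of 18 alternatives. The difference between the treated groups was called, and *CLDN6* was 15.5-fold higher in the mean of SCNT4c-KG than in that of SCNT4c-TDG (log2 fold change of SCNT4c-TDG against SCNT4c-KG -4.01, SE 0.47, adjusted p = 9.6e-05). SCNT8c replicates 1 to 3 were at 1539, 1402 and 678, of which replicate 3 overlapped SCNT4c. The stage difference of 1.44 was not called (adjusted p = 0.0737) and was called with DESeq2 (1.53) and without SCNT8c replicate 3 (1.82). *CLDN6* was also read in PFF, at 257, 192 and 257, and SCNT4c did not pass the test against them (0.83, adjusted p = 0.178). In that comparison it was called in 5 of 17 alternatives, among them DESeq2 (1.87) and edgeR (1.82).

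*CLDN4* (chr3:11039711-11053930, plus strand, 4 exon blocks) encodes claudin 4, a barrier-forming claudin. It varied widely within groups, at 551, 119 and 170 in SCNT4c libraries a, b and c and at 335, 63.5 and 96.9 in SCNT4c-KG, which overlapped (log2 fold change -0.81, adjusted p = 0.487). SCNT4c-TDG was at 87.0, 16.9 and 10.7, below every SCNT4c library. It fell in SCNT4c-TDG (-3.09, SE 0.88, adjusted p = 0.0135), but the call was lost without SCNT4c library a (-2.44), SCNT4c-TDG replicate 2 (-2.81) or SCNT4c-TDG replicate 3 (-2.50). The difference between the treated groups was not called (-2.28, 95% CI -4.15 to -0.42, adjusted p = 0.0895), and was called in a fit of the 2 groups alone and without SCNT4c-TDG replicate 1 (-3.15, adjusted p = 0.0370). SCNT8c was at 95.2, 128 and 470 and overlapped SCNT4c (-0.32, adjusted p = 0.840). Against PFF, at 75.7, 76.4 and 82.2, SCNT4c was higher by 1.51 (adjusted p = 0.0475). That call was lost in 7 of 17 alternatives.

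*TJP1* (chr1:144930387-145195857, minus strand, 31 exon blocks) encodes the scaffold protein ZO-1, which links claudins and occludin to actin. Its values were 309, 577 and 473 in SCNT4c, 188, 250 and 131 in SCNT4c-KG and 251, 110 and 253 in SCNT4c-TDG. Both treated groups lay below SCNT4c in every library, and neither difference passed the test (-1.25, adjusted p = 0.0739, and -1.20, adjusted p = 0.0939). Both were called in a fit of the 2 groups alone (adjusted p = 0.0203 and 0.0246), and the first also with libraries scaled to 1 total (-1.34). The treated groups overlapped, with a difference of 0.06 (95% CI -1.07 to 1.19). SCNT8c was at 153, 163 and 530, of which replicate 3 lay within the range of SCNT4c. The stage difference of -0.89 (adjusted p = 0.277) was called only without that library (-1.47). PFF held 1233, 1150 and 1344, and *TJP1* was lower in SCNT4c (-1.50, SE 0.25, adjusted p = 0.0017). That call depended on the scaling, and it was lost with quantile normalization (-0.48), libraries scaled to 1 total (-0.87), TMM factors (-0.99), edgeR (-0.70) and DESeq2 (-0.66).

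*OCLN* (chr16:47600175-47652435, plus strand, 11 exon blocks) encodes occludin, a membrane protein of the tight junction strand. It did not pass the filter of the 2 fits reported here, over the embryo libraries and over PFF with SCNT4c, so no test is given. It had 0 reads in PFF and 1 to 3 reads per library in SCNT4c. SCNT8c held 1 read over its 3 libraries. SCNT4c-KG had 11, 20 and 5 reads (normalized values 18.0, 25.4 and 7.12), and SCNT4c-TDG had 6, 4 and 9 (5.02, 3.07 and 6.89). Both treated groups lay above every SCNT4c library, at counts too low for a firm size.

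The keratins were at or near the detection floor. *KRT8* (chr5:18172423-18180277, minus strand, 9 exon blocks) had 0 reads in all SCNT4c and SCNT8c libraries. It had at most 3 reads in any library, with 6 over PFF, 5 over SCNT4c-KG and 2 over SCNT4c-TDG, and did not pass the filter either. In SCNT4c 0 reads allow a mean normalized value of up to 2.49, the value of 3 reads per library, and this limit covers counting error only. *KRT18* (chr5:18217686-18221432, plus strand, 7 exon blocks), which encodes the partner of keratin 8, was at 10.3, 2.62 and 0 in SCNT4c and at 7.47, 15.8 and 0 in SCNT8c. It was at 26.1, 17.8 and 0 in SCNT4c-KG and at 36.0, 6.14 and 25.3 in SCNT4c-TDG. Single libraries with 0 reads occurred in 3 of the 4 embryo groups, every pair of groups overlapped, and no comparison was called. The interval for SCNT4c-TDG against SCNT4c ran from -0.60 to 5.54 on the log2 scale and included 0.

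*ATP1B1* (chr4:81912543-81937015, minus strand, 6 exon blocks) encodes the beta-1 subunit of the sodium pump, which is needed for the assembly of the pump at the membrane. It was at 2065, 1927 and 1844 in PFF and at 50.5, 34.1 and 40.7 in SCNT4c, lower by 5.52 on the log2 scale (SE 0.20, adjusted p = 2.3e-06). SCNT4c-TDG was at 109, 172 and 273, above every SCNT4c library, and *ATP1B1* rose there (2.04, SE 0.54, adjusted p = 0.0089). Without SCNT4c-TDG replicate 3 the difference was 1.71 and not called. SCNT4c-KG, at 62.1, 100.3 and 64.1, was also above every SCNT4c library, but the difference was not called (0.82, 95% CI -0.32 to 1.97, adjusted p = 0.238). Between the treated groups the difference of 1.21 was not called (adjusted p = 0.140) and was called with DESeq2 (1.42). SCNT8c was at 67.2, 90.6 and 46.5 and overlapped SCNT4c (0.66, adjusted p = 0.429).

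**Figure D2:**
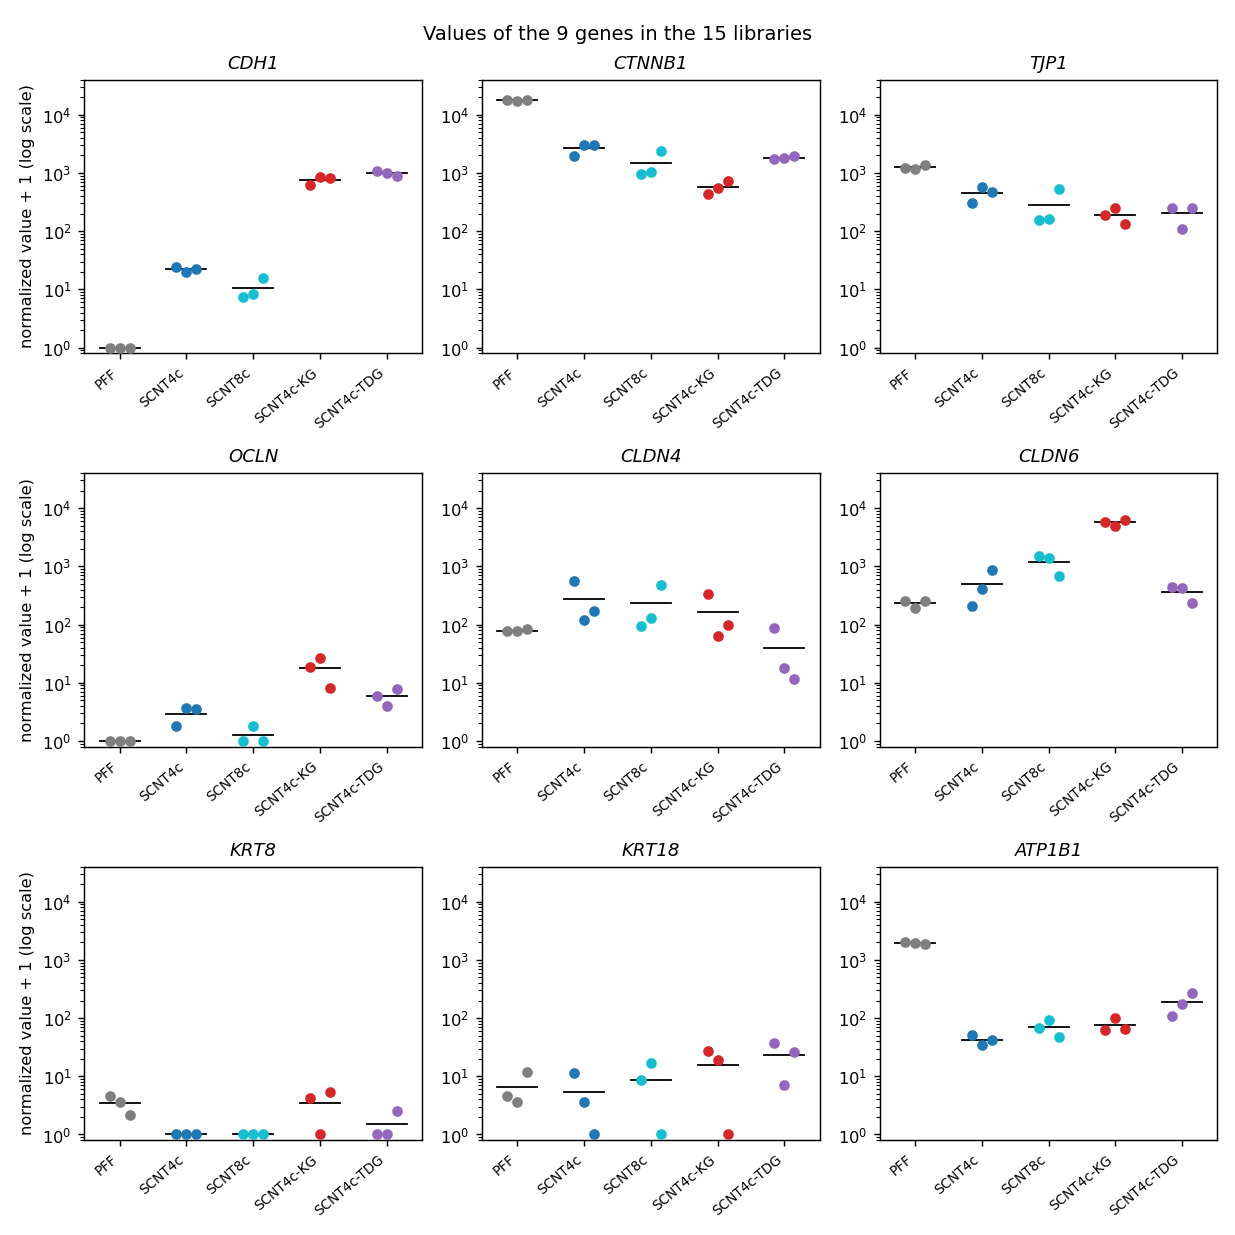
Each panel shows 1 gene, with the normalized value plus 1 on a log axis for the 3 libraries of each of the 5 groups as points and the group mean as a line. *CDH1* separates both treated groups from the untreated embryos, *CLDN6* separates SCNT4c-KG alone, and *KRT8* stays at 3 reads or fewer everywhere.

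Counted over the genes, SCNT4c-KG against SCNT4c had 2 of 7 tested genes higher (*CDH1*, *CLDN6*) and 1 lower (*CTNNB1*). Of all 18942 features tested 37.2% were called in that comparison, as 17.6% higher and 19.6% lower. SCNT4c-TDG against SCNT4c had 2 higher (*CDH1*, *ATP1B1*) and 1 lower (*CLDN4*), beside a background of 33.3% (15.7% higher, 17.6% lower). A count of 3 in 7 lies near the background in both cases. Ranges of the libraries did not overlap for 5 of 7 genes in SCNT4c-KG and 4 of 7 in SCNT4c-TDG, beside 53.9% and 58.4% of all features. The median log2 fold change of the 7 genes was 0.82 in SCNT4c-KG, beside -0.30 over all features, and -0.23 in SCNT4c-TDG, beside -0.26. *KRT18* is among the 7, although its means of 4.29 in SCNT4c and 7.75 in SCNT8c were under the filter minimum of 10. It passed through SCNT4c-KG (14.6) and SCNT4c-TDG (22.4). Without it the medians would lie between -0.81 and 0.82 in SCNT4c-KG and between -0.52 and -0.23 in SCNT4c-TDG. All comparisons with SCNT4c used the same 3 SCNT4c libraries. SCNT8c against SCNT4c had 0 of 7 genes called with limma, beside a background of 5.79% (2.62% higher, 3.16% lower), and an unadjusted p under 0.05 was reached by 3 of the 7 genes and by 5480 of all features. DESeq2 called 1 of the 7 there. Ranges were apart for 1 of 7, beside 23.5%. SCNT4c-TDG against SCNT4c-KG had 1 higher (*CTNNB1*) and 1 lower (*CLDN6*) of 7, beside 16.2% (7.07% higher, 9.13% lower), and ranges were apart for 4 of 7, beside 44.4%. SCNT4c against PFF had 2 higher (*CDH1*, *CLDN4*) and 3 lower (*CTNNB1*, *TJP1*, *ATP1B1*) of 6, beside 78.2% (39.7% higher, 38.5% lower), and ranges were apart for 5 of 6, beside 84.5%. *CDH1* had to differ there, since it had 0 reads in PFF and passed the filter through SCNT4c alone. Without it 1 gene was higher and 3 were lower of 5, and ranges were apart for 4 of 5.

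**Figure D3:**
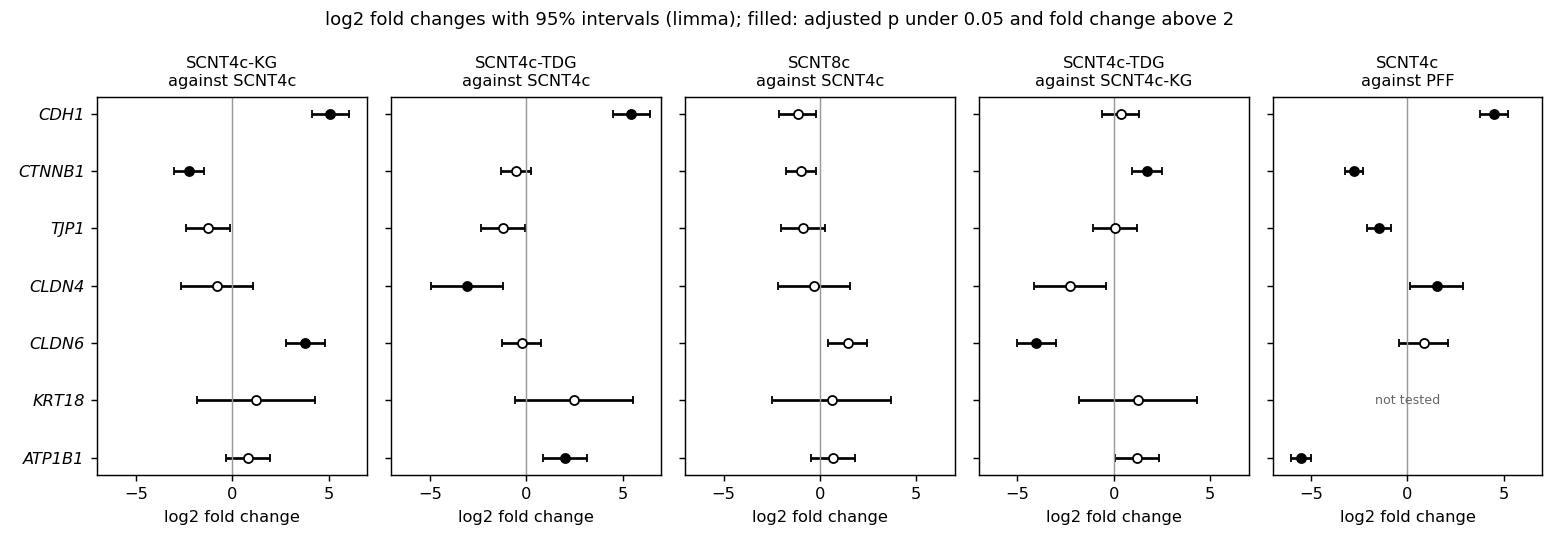
Points give the log2 fold change of each tested gene in 5 comparisons and bars the 95% interval from limma, with filled points for genes that were called. *CDH1* is at 5.08 and 5.45 in the 2 comparisons of treated with untreated 4-cell embryos, while *CLDN6* and *CTNNB1* are called in SCNT4c-KG against SCNT4c and in the comparison of the treated groups.

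Levels of different genes were compared only per kilobase of annotated exon. In SCNT4c *CTNNB1* was the highest, with a mean of 580 per kb, followed by *CLDN6* at 276, *CLDN4* at 150, *TJP1* at 57.2 and *ATP1B1* at 33.8, and each of these overlapped the next in its range over libraries. *CDH1* was the sixth at 5.04 and did not overlap *ATP1B1*. *KRT18* at 2.99 overlapped *CDH1*. In SCNT4c-KG *CLDN6* led with 3226 per kb (2798 to 3590), above *CDH1* at 180 (147 to 200), and *CDH1* overlapped *CTNNB1* at 123 (94.2 to 157) and *CLDN4* at 88.4 (34.0 to 179). In SCNT4c-TDG *CTNNB1* led with 397 (374 to 428), followed by *CDH1* at 230 (204 to 248), *CLDN6* at 208 (131 to 253) and *ATP1B1* at 149 (88.0 to 221), and *CDH1* overlapped both of the latter. By its mean *CDH1* was the second of the 9 genes in both treated groups, but its range was not apart from the genes after it. In SCNT8c *CLDN6* at 678 and *CTNNB1* at 320 overlapped, and *CDH1* was the seventh at 2.25. In PFF *CTNNB1* at 3900 and *ATP1B1* at 1575 were far above *TJP1* at 157, and *CDH1* and *OCLN* were at 0.

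The wider junction and polarity machinery was followed in 110 genes of 6 lists, of which 107 were in the table and 64 were tested between embryos. In SCNT4c-KG 13 of them were higher and 12 lower than in SCNT4c, and in SCNT4c-TDG 14 were higher and 10 lower. These 25 and 24 called of 64 lie near the backgrounds of 37.2% and 33.3%. Calls over all features also fell on both sides, as given above. Genes named from the lists were the 3 largest rises and falls that met the rule given with the processing. In addition, genes of counts of 5 or fewer are named, chosen after their values were seen.

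Of the named list genes, the largest rise on the log2(value + 1) scale in both treated groups was that of *ATP1B3*, the beta-3 subunit of the sodium pump. In SCNT4c-KG this order depended on the setting. Over the alternatives *ATP1B3* ran from 7.75 to 8.22 and *SNAI1*, described below, from 4.36 to 9.92. Its mean was 78.8 ± 25.2 (SD, n = 3) in SCNT4c, 19899 ± 3221 in SCNT4c-KG (log2 fold change 8.00, adjusted p = 1.1e-09) and 9353 ± 703 in SCNT4c-TDG (6.92, adjusted p = 6.9e-09). Of the 9 tested genes of the list of sodium pump, water channel and gap junction genes, 2 were higher and 2 lower in SCNT4c-KG.

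Among 11 tested tight junction genes, 3 were higher (*CLDN7*, *CLDN8*, *MARVELD2*) and 2 lower (*CLDN10*, *F11R*) in SCNT4c-KG. *CLDN7*, another claudin, was at 255 ± 10.9 in SCNT4c, 13847 ± 3238 in SCNT4c-KG (5.73, adjusted p = 7.2e-09) and 1197 ± 163 in SCNT4c-TDG. Like *CLDN6*, it was lower in SCNT4c-TDG than in SCNT4c-KG (-3.51, adjusted p = 7.0e-06). In SCNT4c-TDG 2 genes of this list were higher (*CLDN7*, *CLDN8*) and 2 lower (*F11R*, *CLDN10*). *F11R*, the junctional adhesion molecule A, fell from 6405 ± 595 to 1077 ± 212 in SCNT4c-TDG (-2.59, adjusted p = 3.8e-06). The list median was -0.46 in SCNT4c-KG and -0.68 in SCNT4c-TDG.

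Among 9 tested adherens and nectin junction genes, *NECTIN2* was higher and *VCL* lower in both treated groups. *NECTIN2*, a nectin that seeds adherens junctions, was at 4.11 ± 1.30 in SCNT4c, 112 ± 30.9 in SCNT4c-KG and 129 ± 67.5 in SCNT4c-TDG, and it passed the filter only through the treated groups, so its call was set by the filter. *VCL*, the actin linker vinculin, fell from 2351 ± 457 to 351 ± 113 in SCNT4c-KG (-2.77, adjusted p = 2.0e-05). *CTNNA1*, alpha-catenin, which couples the cadherin complex to actin, fell in SCNT4c-TDG from 7313 ± 2292 to 1377 ± 123 (-2.37, adjusted p = 3.6e-05), and in SCNT4c-KG its change was under 2-fold (-0.88, adjusted p = 0.0319). Desmosome and keratin genes had 3 of 9 tested genes higher (*PKP2*, *KRT10*, *PERP*) and 0 lower in both treated groups, beside 17.6% and 15.7% of all features higher. In SCNT4c-KG *PKP2* was near the threshold (3.62, SE 1.34, adjusted p = 0.0440) and its ranges overlapped. The list median was 1.16 in SCNT4c-KG and 1.09 in SCNT4c-TDG, beside the medians over all features given above.

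Of 17 tested polarity and cortex genes, 2 were higher (*RHOA*, *EZR*) and 3 lower (*PARD6G*, *CRB3*, *ROCK2*) in SCNT4c-KG, and 6 were higher and 2 lower (*PARD6G*, *CRB3*) in SCNT4c-TDG. *CRB3*, an apical determinant, fell from 583 ± 296 to 109 ± 23.5 in SCNT4c-TDG (-2.31, adjusted p = 0.0023). *PARD6G*, a scaffold of the apical PAR complex, fell from 1385 ± 336 to 326 ± 169 in SCNT4c-KG (-2.24, adjusted p = 0.0018). Between the treated groups, *PRKCI*, the atypical protein kinase C of the PAR complex, was higher in SCNT4c-TDG (936 ± 99.6 against 238 ± 59.2, log2 fold change 1.99, adjusted p = 0.0065). Against SCNT4c it was called in SCNT4c-TDG (1.27, adjusted p = 0.0369) and not in SCNT4c-KG (-0.72, adjusted p = 0.207).

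Among the 9 tested epithelial and mesenchymal regulators was *SNAI1*, which encodes a repressor known to bind E-boxes of *CDH1*. *SNAI1* had 1 read over the 3 SCNT4c libraries, 1 over SCNT8c, 4 over SCNT4c-TDG and 424 over SCNT4c-KG. Its value was 201 ± 21.9 (SD, n = 3) in SCNT4c-KG, the only group through which it passed the filter. Its calls against SCNT4c and SCNT4c-TDG, which are among the counts of list genes, were therefore set by the filter, and its values are given as a description. The *CDH1* values of these same groups, given above, were 629 to 852 in SCNT4c-KG and 871 to 1059 in SCNT4c-TDG. Whether the 2 genes are related in these embryos was not tested. The mesenchymal factor *TWIST1* fell in SCNT4c-KG from 254 ± 101 to 56.1 ± 18.1 (-2.10, adjusted p = 0.0136) and also in SCNT4c-TDG (-2.29, adjusted p = 0.0093). The call in SCNT4c-KG was lost without SCNT4c library a (-1.88) or library b (-1.95), with an adjusted p of up to 0.0551. *TFAP2C*, a trophectoderm transcription factor, rose in both treated groups, from 756 ± 315 in SCNT4c to 36087 ± 5686 in SCNT4c-TDG (5.64, adjusted p = 3.0e-08) and by 4.34 in SCNT4c-KG (adjusted p = 9.4e-08). The difference between the treated groups was called as well (1.30, adjusted p = 0.0099). *EPCAM*, an epithelial adhesion molecule, fell from 2862 ± 153 in SCNT4c to 967 ± 288 in SCNT4c-KG (-1.61, adjusted p = 0.00040). It was not called in SCNT4c-TDG (3025 ± 72.4, 0.08, 95% CI -0.50 to 0.67, adjusted p = 0.843), and the difference between the treated groups was called (1.69, adjusted p = 0.00091). In all, 2 regulators were higher (*SNAI1*, *TFAP2C*) and 4 lower in SCNT4c-KG, the latter being *EPCAM*, *TWIST1* and the epithelial splicing regulators *ESRP1* (-1.24, adjusted p = 0.0234) and *ESRP2* (-4.20, adjusted p = 0.0191, with ranges that overlapped). In SCNT4c-TDG 1 was higher (*TFAP2C*) and 2 lower, *TWIST1* and the epithelial transcription factor *GRHL2* (-1.70, adjusted p = 0.0450). Against SCNT4c-KG, SCNT4c-TDG had 5 genes of all lists higher and 6 lower, beside a background of 16.2%. *GJC1*, a gap junction connexin, was among the lower ones (46.2 ± 10.3 against 223 ± 94.9, -2.20, adjusted p = 0.0352). Against SCNT4c it was called higher in SCNT4c-KG (2.45, adjusted p = 0.0099) and was not called in SCNT4c-TDG (0.26, adjusted p = 0.795). The call between the treated groups was lost in 9 of 20 alternatives, among them every fit without 1 of these 6 libraries, with an adjusted p of up to 0.134.

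At the 8-cell stage 2 list genes were higher (*PERP*, *ATP1B3*) and 3 lower, among them *ESRP1* and *VCL*, than in SCNT4c, beside a background of 5.79%. *PERP*, a desmosomal membrane protein, rose from 33.7 ± 7.41 to 127 ± 45.9 (1.84, adjusted p = 0.0238), and *ATP1B3* from 78.8 ± 25.2 to 223 ± 69.7 (1.48, adjusted p = 0.0257). *ESRP1*, an epithelial splicing regulator, was at 2366 ± 1795 in SCNT8c against 5546 ± 234 (-1.50, adjusted p = 0.0411), and *VCL* was at 973 ± 289 against 2351 ± 457 (-1.29, adjusted p = 0.0388). These 4 calls were lost in 6 of 18 alternatives for *PERP* and *ATP1B3*, 8 for *VCL* and 10 for *ESRP1*. The count of 5 moved between 0 and 15 when 1 library was left out, with 0 without SCNT4c library b, SCNT8c replicate 1 or SCNT8c replicate 2, and 15 without SCNT8c replicate 3.

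Between SCNT4c and PFF 21 list genes were higher and 40 lower of 71 tested, beside 39.7% of all features higher and 38.5% lower. *EPCAM*, at 2862 ± 153 in SCNT4c, and *CLDN8*, at 306 ± 159, had 0 reads in PFF and were at least 776-fold and 83.1-fold higher than the floor of 3 reads per library. *TFAP2C* was at 756 ± 315 in SCNT4c, with 2 reads over PFF. *MSN*, encoding the cortical linker moesin, was at 52876 ± 3783 in PFF and 22.5 ± 17.8 in SCNT4c (-11.65, adjusted p = 3.0e-05). *CDH11*, a mesenchymal cadherin, was at 29203 ± 1073 and 22.5 ± 23.0 (-10.73, adjusted p = 1.5e-05), and *DSC3*, a desmosomal cadherin, at 13895 ± 782 and 33.6 ± 49.1 (-10.40, adjusted p = 0.00093). With 1 library left out, the value of *DSC3* ran from -11.98 to -8.73. The sums of the fibroblast and oocyte markers moved with this comparison, as given above, and so did the kit used for RNA extraction. Their part in these values was not tested. In the adherens and nectin list 8 of 9 tested genes were lower, and in the tight junction list 8 of 13 were higher. The direction of many of these calls was set by the filter, since 26 of the 71 genes, *EPCAM*, *CLDN8* and *TFAP2C* among them, averaged under 10 in 1 of the 2 groups and passed through the other. Without these 26 genes, 6 were higher and 29 lower of 45, with 7 of 7 lower in the adherens and nectin list and 3 higher and 2 lower of 6 in the tight junction list.

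**Figure D4:**
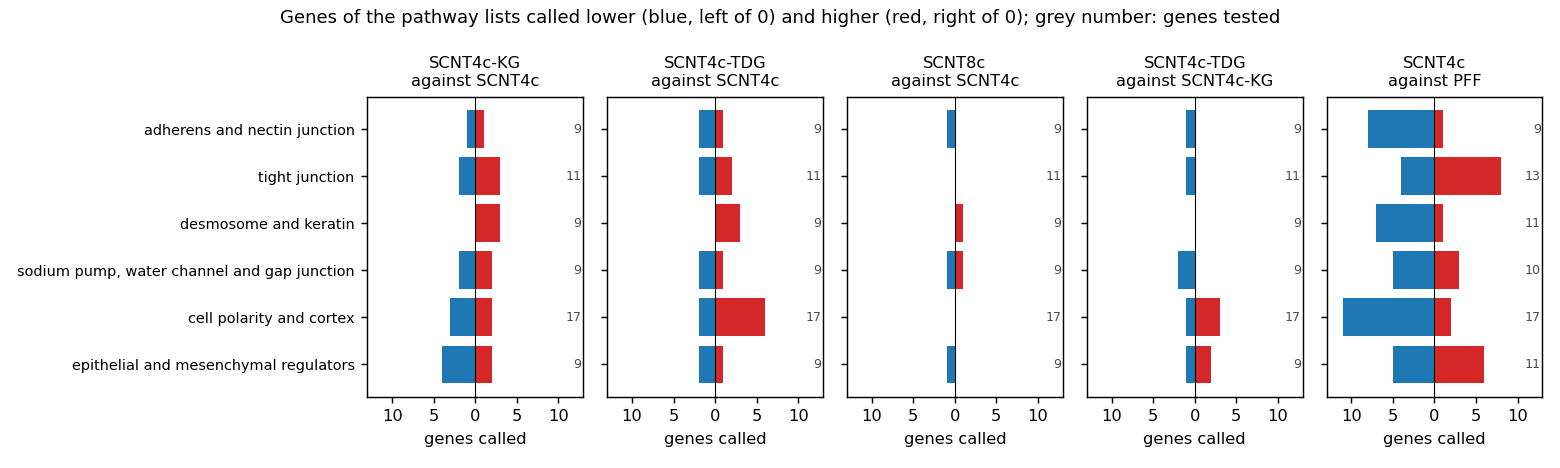
Bars give the number of genes called lower (left of 0) and higher (right of 0) in each list for 5 comparisons, and the grey number is the number of genes tested. Treated embryos have calls on both sides, SCNT8c has at most 2 calls in a list, and SCNT4c against PFF has 8 of 9 adherens and nectin genes lower.

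The known genes most like each member across the 12 embryo libraries were found by Pearson r of log2(value + 1) among 6287 genes with a mean of at least 100. The nearest were *LOC100511133* (r = 0.995) and *DYNLL1* (0.989) for *CDH1*, *SLAIN2* (0.974) and *SLC6A4* (0.970) for *CTNNB1*, and *C7H6orf89* (0.978) and *DDX10* (0.975) for *CLDN6*. *CLDN4* was most like *LOC100525835* (0.947), *ATP1B1* like *ZBTB41* (0.923), *TJP1* like *C6H1orf50* (0.918) and *KRT18* like *THAP4* (0.875). The 12 libraries fall into 4 groups, so these correlations describe mainly the group means.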

How the data were processed

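RNA of PFF was extracted with TRIzol and that of embryo pools with a PicoPure kit, and cDNA was amplified with a SMARTer kit before sequencing. Extraction and cell type therefore cannot be told apart in the comparison with PFF. The authors called bases with Casava 1.8.2, trimmed reads with Trimmomatic 0.39, used STAR 2.5.3a for mapping to Sscrofa11.1, retained reads with a unique position, built further transcripts with StringTie 2.1.2 and ran HTSeq for counting. The strand setting of the counting is not given in the sources used here. The deposited values are a normalized signal, that is, counts divided by 1 factor for each library. In each library 100% of the values were whole multiples (within 0.01 reads) of the value of 1 read. Of 43535 entries, 241 repeated ones were removed. PCR copies cannot be told from molecules, so read limits cover counting error only.

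Features averaging 10 or more entered limma 3.58.1 (R 4.3.3) as log2(value + 1) with an intensity trend, over 12 embryo libraries or, for PFF, 6 libraries. On this scale fold changes of low genes are understated. Features were called at a Benjamini-Hochberg adjusted p below 0.05 with more than a 2-fold change. edgeR 4.0.16 and DESeq2 1.42.0 on the recovered reads, other scalings, pseudocounts and filters, and left-out libraries were alternatives. The 9 genes and the lists were chosen with earlier results of these data known. Named list genes were up to 3 rises and 3 falls per comparison, called, with ranges that do not overlap and an average of 100 or more in the higher group. Not every gene selected in this way is given here. Exon lengths, positions and promoters came from RefSeq for Sscrofa11.1, read with pysam 0.24.0. Replicate numbers of SCNT4c differ between label fields, so these libraries are called a, b and c. The description field of SCNT4c-KG holds the column names of SCNT4c, and columns were assigned by titles. Libraries with the same number in the other groups deviated together with correlations of -0.061 to 0.196, so numbers were not treated as pairs.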

Additional observations from a re-analysis of the deposited data

Results flagged for a closer look

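The assembled transcript at the *CDH1* locus, which carries no gene name and is not counted with *CDH1*, was higher in SCNT4c-KG than in SCNT4c, with a log2 fold change of 2.51 (adjusted p = 0.0098 from limma). It was set apart because it is a signal outside the genes compared, above the level of the untreated controls. Every SCNT4c-KG library (425 to 722) lay above every SCNT4c library (47.3 to 208). Whether these reads come from the *CDH1* transcript was not tested.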

How the results depend on the processing

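For the 7 tested genes, 563 of 610 alternative values kept the direction and the side of the threshold, 16 lost the call, 16 gained it and 15 changed sign. The calls of *CDH1*, *CTNNB1* and *CLDN6* in SCNT4c-KG against SCNT4c and of *CDH1* in SCNT4c-TDG held in all 18 alternatives of each. None of the changes of sign concerned a called value. In SCNT4c-TDG against SCNT4c, *CLDN6* turned to 0.0474 with quantile normalization, 0.0419 with the same total in each library and 0.0412 with TMM factors, and leaving out 1 library gave -0.74 to 0.29. In SCNT8c against SCNT4c, *CDH1* turned to 0.67 when summed with the transcript of its locus, and leaving out 1 library gave -1.01 to 0.33 for *CLDN4* and -0.29 to 1.79 for *KRT18*. In SCNT4c-TDG against SCNT4c-KG, *CDH1* turned to -0.10 with the summed locus, and leaving out 1 library gave -0.18 to 0.46 for *TJP1* and -0.24 to 2.14 for *KRT18*.

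The count of called genes among the 9 was 1 to 3 in SCNT4c-TDG with 1 library left out, 0 to 4 in SCNT8c and 3 to 4 in SCNT4c against PFF, where it was 5 with all libraries, and DESeq2 called 1 in SCNT8c. List genes called in SCNT8c numbered 8 with a pseudocount of 10, 3 with all features above 0, 10 with DESeq2, 8 with summed loci, 0 in a fit of the 2 groups alone and 0 to 15 with 1 library left out. Over all features that comparison had 45.35% of its calls higher with limma, 56.95% with quantile normalization, 79.45% with edgeR and 71.79% with DESeq2. In SCNT4c-TDG against SCNT4c the share of higher calls was 47.13%, and 57.32% with TMM factors. Against SCNT4c-KG it was 43.65%, 64.26% with the same total and 59.42% with TMM factors. The median of all features in SCNT4c against PFF moved by 0.63 with TMM factors and 0.94 with DESeq2.

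No paired analysis was possible because the SCNT4c columns carry no replicate number that matches the labels, except for SCNT4c-TDG against SCNT4c-KG. With the replicate number as a block that comparison called 2 of the 9 genes and 11 list genes, and 2 and 11 without it in the same 3 groups, a setting chosen after seeing the data.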
